A study of Mus musculus with 6 samples.

Results

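The alpha-2-macroglobulin family was described in the liver of male and female mice. Its 4 members, A2m, Pzp, Mug1 and Mug2, were taken by gene symbol and each matched 1 of the 24197 genes in the authors' deposited table. The family consists of large plasma glycoproteins that trap proteases: a protease cuts an exposed bait stretch, the inhibitor closes around it, and an internal thioester bond can tie the protease to the trap before receptors on liver cells clear the complex. Pzp, pregnancy zone protein, is the abundant alpha-2-macroglobulin of mouse plasma, and RefSeq lists A2m and MAM among its older names, so the rows were also checked by accession (NM_007376 for Pzp, NM_175628 for A2m). Mug1 and Mug2 encode murinoglobulins, protease inhibitors of rodent plasma that act as single subunits and not as tetramers.

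Both groups were intact adult mice of the outbred CD-1 stock, with no treatment. The male group was aged 7 to 9 weeks and had 3 libraries, each from a pool of 17 livers by the legend of the deposited workbook. The female group was aged 7 to 11 weeks and had 3 libraries, each from a pool of 12 livers by that legend. Pool size and the upper age limit therefore went with sex. The sequenced RNA was poly-A selected, and the libraries keep the strand. The table used here holds the authors' mean FPKM of each sex (fragments scaled to gene length and to library size), with a normalized male over female ratio and its adjusted p-value. Each is given once for the gene body and once for introns. The male pools had 28415535, 37727874 and 42673908 reads and the female pools 28358105, 38215906 and 41206357 reads, totals that were worked out from genes with a lone read. The 5 hepatocyte markers summed to 17903 FPKM over male pools, against 23793 FPKM over female pools. Most of both sums was Alb, at 12608 FPKM over male pools, against 19411 FPKM over female pools. By the authors' threshold Apoa1 was higher and Alb and Cps1 were lower in male liver, while Ttr and Tat did not pass. All 4 Kupffer cell markers (Cd5l, Clec4f, Marco, Vsig4) were lower in male liver, and summed to 56.0 FPKM over male pools, against 89.5 FPKM over female pools. Lower in male liver were also Oit3 of 4 sinusoidal endothelial markers, Lrat and Reln of 4 stellate cell markers and Cd3e of 4 lymphocyte markers, and no marker of these types was higher. No marker of cholangiocytes, neutrophils, exocrine pancreas or adipocytes passed. The part of these markers in the results was not tested. In such bulk tissue, fewer cells of a type and less RNA per cell cannot be told apart.

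All 4 genes lie on chromosome 6 (build mm9). A2m (121586191 to 121629256), Mug1 (121788559 to 121839075) and Mug2 (121956816 to 122035985) lie in 1 stretch, with 159 kb between A2m and Mug1 and 117.7 kb between Mug1 and Mug2. Pzp (128433585 to 128476738) lies apart from them, 6.24 Mb beyond the last murinoglobulin copy. The coding sequences show how close the copies are. In GENCODE M21, on build GRCm38, Mug1 and Mug2 were identical at 95.1% of 4347 aligned coding bases. Every pair with A2m or Pzp was between 64.6% and 69.7% identical. The stretch that encodes the thioester is shown first because all 4 members carry it. It was found once in each coding sequence, in exon 24 of each, and the capitals mark the codons of the motif whose cysteine and glutamine form the thioester bond, with 15 bases on each side.
A2m (chr6:121668087-121668131, plus strand): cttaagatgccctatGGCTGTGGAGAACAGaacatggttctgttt
Pzp (chr6:128491587-128491631, minus strand): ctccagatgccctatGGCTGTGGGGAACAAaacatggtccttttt
Mug1 (chr6:121878952-121878996, plus strand): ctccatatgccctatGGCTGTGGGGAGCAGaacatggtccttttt
Mug2 (chr6:122075186-122075230, plus strand): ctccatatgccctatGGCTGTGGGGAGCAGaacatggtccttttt
Mug1 and Mug2 are the same at every base shown.

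A second pair of sequences shows where reads can tell the murinoglobulins apart. Over ungapped windows of 60 coding bases within 1 exon, Mug1 and Mug2 differed most in exon 18 of each, at 19 of 60 bases. Over all windows of 60 alignment columns, also those with gaps or across exons, the median was 3 differing columns. The capitals mark the bases that differ.
Mug1 (chr6:121873620-121873679, plus strand): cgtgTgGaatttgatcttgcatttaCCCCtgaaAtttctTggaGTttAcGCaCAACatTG
Mug2 (chr6:122063560-122063619, plus strand): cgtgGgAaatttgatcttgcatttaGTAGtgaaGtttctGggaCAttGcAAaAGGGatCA
The longest identical run between these coding sequences was 182 bases. Of all words of 50 bases in the Mug1 transcript, 32.9% also occurred in a transcript of another gene, and of those in Mug2 50.5% did. With words of 100 bases the shares were 7.90% for Mug1 and 27.1% for Mug2. Mug2 shared most with the pseudogene Mug-ps1 and Mug1 shared most with Mug2. Both also shared words with Gm7298, which lies between A2m and Mug1, and with the pseudogene Mug4-ps, between Mug1 and Mug2. The authors' deposited table lists neither Gm7298 nor Mug4-ps. No word of 50 bases in A2m or Pzp occurred in another gene. The sources used here give neither the read length nor how reads that fit several genes were counted. In this respect values of Mug1, Mug2 and their pseudogenes are less certain than those of A2m and Pzp. Words were compared on 1 strand only, so the overlap of Pzp with an antisense RNA gene, given below, is not covered.

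Of the 4 members, 3 were higher in male liver (A2m, Pzp, Mug1) and none was higher in female liver, by the authors' adjusted p under 0.05 on the gene body. Mug2 did not pass. Of the 17997 genes above 0 in either sex 1808 passed, 4.61% with higher values in male liver and 5.44% with higher values in female liver. Abundant genes passed more often: among the 399 genes at 100 FPKM or more in either sex, which include Pzp and Mug1, 35.1% passed, 21.3% with higher values in male liver. In introns only Mug1 passed, where 3.16% of 16569 genes above 0 passed, 1.76% with higher values in male and 1.40% with higher values in female liver. The intron values come from the same libraries and are no replication of the gene body values. Nothing in the labels says whether a liver went into more than 1 pool. The authors' p-values compare pools, 3 per sex, and do not measure the spread between single mice.

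**Figure D1:**
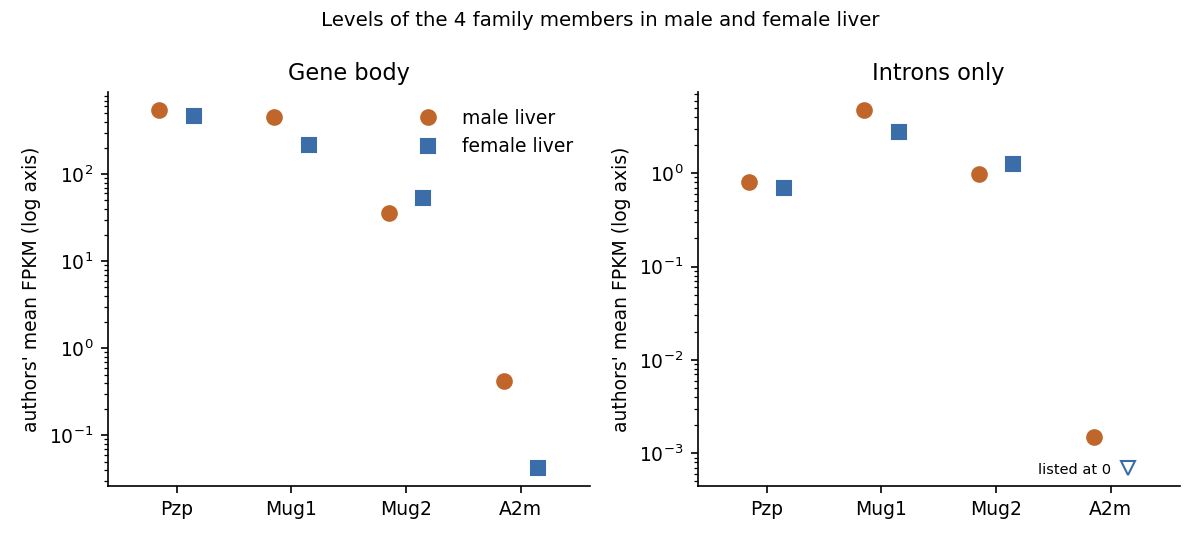
Authors' mean FPKM of each member in male (circles) and female liver (squares), each mean over 3 pools, on log axes for the gene body (left) and introns only (right). In the gene body Pzp and Mug1 stand above Mug2, and A2m lies far below the other members in both panels and sexes; the open triangle marks A2m introns, listed at 0 in female liver.

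Pzp was the most abundant member in both sexes. Its gene body mean was 547 FPKM over male pools, against 463 FPKM over female pools. By level it was rank 55 of all genes in male and rank 58 in female liver. Pzp was 1.22-fold higher in male liver by the authors' deposited table (adjusted p 0.00844). By fold, that was rank 801 of the 829 genes called higher in male liver. Intron levels of Pzp were 0.798 FPKM over male pools, against 0.691 FPKM over female pools, with an adjusted p of 0.809 in the authors' deposited table. The intron level was 0.146% of the gene body level in male and 0.149% in female liver, against medians of 1.30% and 1.39% over genes at 1 FPKM or more. Pzp overlaps the antisense RNA gene Gm10069 over 19715 bases. Gm10069 had an intron level of 10.6 FPKM over male pools, against 8.94 FPKM over female pools, while its gene body was at 0.142 FPKM over male pools, against 0.160 FPKM over female pools. The libraries keep the strand, but the sources used here do not say whether reads were counted by strand. Values of both Pzp and Gm10069, gene body and introns, are uncertain for this reason. The part of the overlap in them was not tested.

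Mug1 was the member that passed in both readouts. Its gene body mean was 447 FPKM over male pools, against 216 FPKM over female pools. Its rank by level was 66 in male and 136 in female liver. Mug1 was 2.15-fold higher in male liver by the authors' deposited table (adjusted p 1.71e-31). Among the 85 genes of 100 FPKM or more called higher in male liver, 32 reached 2-fold, and Mug1 was rank 31 by fold. Intron levels were 4.76 FPKM over male pools, against 2.78 FPKM over female pools. The introns of Mug1 were 1.87-fold higher in male liver by the authors' deposited table (adjusted p 2.89e-07). Both readouts of Mug1 stood higher in male liver, with 1.06% of the gene body level found in introns in male and 1.28% in female liver.

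Mug2, the closest copy of Mug1, passed in neither readout. Its gene body mean was 35.7 FPKM over male pools, against 52.6 FPKM over female pools, with an adjusted p of 0.152 in the authors' deposited table, where its ratio corresponds to a 1.42-fold higher female level. Its intron means were 0.970 FPKM over male pools, against 1.26 FPKM over female pools, with an adjusted p of 0.958 in that table. Its fold was large for a gene that did not pass: of 1122 genes with a mean between 20 and 100 FPKM, 121 had at least the fold of Mug2, and 120 of these passed the authors' threshold. Mug2 was the exception, and the smallest fold that passed in this range was 1.20. The spread of Mug2 between pools was not recovered from the means. The gene body level of Mug1 was 12.5 times that of Mug2 in male and 4.11 times that of Mug2 in female liver. In introns it was 4.91 times that of Mug2 in male and 2.21 times in female liver. Whether the sex difference of Mug1 differs from that of Mug2 was not tested, because the deposited means carry no spread.

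**Figure D2:**
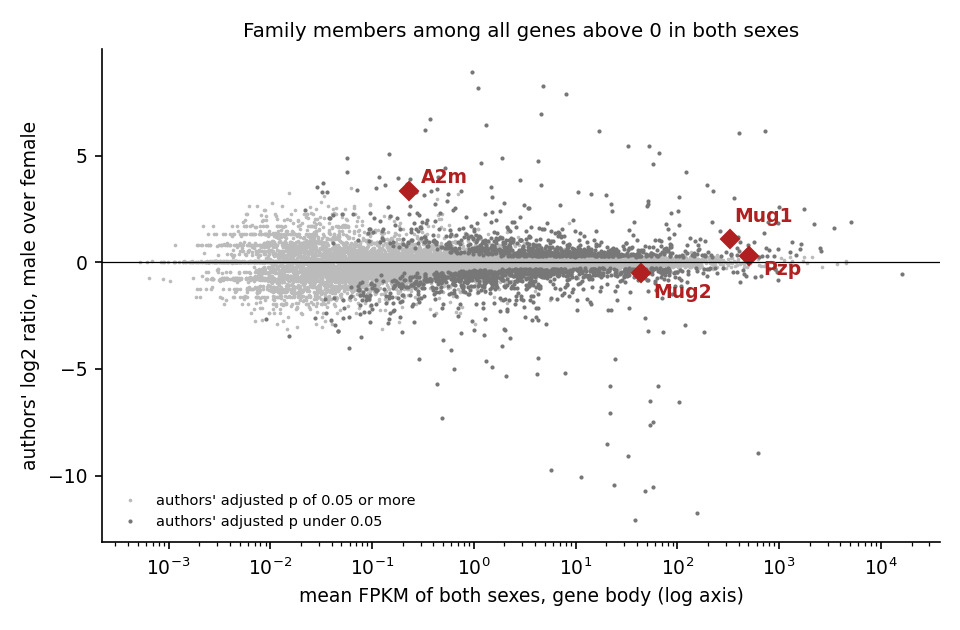
Authors' log2 ratio of male over female liver (vertical) against the mean FPKM of both sexes (horizontal, log axis) for every gene above 0 in both sexes, with the 4 members as diamonds. Mug1 and A2m lie above the bulk of genes of like level, Pzp at 0.29 close to it, and Mug2 at -0.50 below 0 among genes past the authors' threshold.

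A2m was nearly silent beside its relatives and had the largest fold of the 4. Its gene body mean was 0.417 FPKM over male pools, against 0.0425 FPKM over female pools, rank 11130 by level in male and rank 14623 in female liver. A2m was 10.1-fold higher in male liver by the authors' deposited table (adjusted p 2.40e-09), which was rank 41 by fold of 829. In introns it was listed at 0.00150 FPKM in male and at 0 in female liver. At such a level the deposited decimals allow only certain whole numbers of reads. Over 600 gene lengths tried, exactly 1 length, 4671 bases, and 1 set of 3 read numbers per sex gave the deposited means. The male pools held 51, 122 and 35 reads of A2m, in the order of the library totals given above, and the female pools 7, 5 and 9. Per pool that was 0.384, 0.692 and 0.176 FPKM in male liver, against 0.0528, 0.0280 and 0.0468 FPKM in female liver. The mean was 0.417 ± 0.260 FPKM over male pools, against 0.0425 ± 0.0129 FPKM over female pools (SD, n = 3 each). The sexes did not overlap, and the lowest male pool stood 3.32 times above the highest female pool. Values per pool were recovered for 3 genes only, all called higher in male liver, so the share of all genes without overlap is unknown. They come from the libraries behind the authors' p-values and are no replication of them. The male pools spread widely, by 3.94 times between the lowest and the highest. A two-sided exact permutation test over the 3 male and 3 female pools gave p = 0.1, the smallest p that 3 against 3 allows, and 0.1 after Benjamini-Hochberg adjustment over the 3 genes with recovered reads. Without the male pool of 122 reads the ratio of the means was 6.58-fold, in place of 9.81-fold with all pools.

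**Figure D3:**
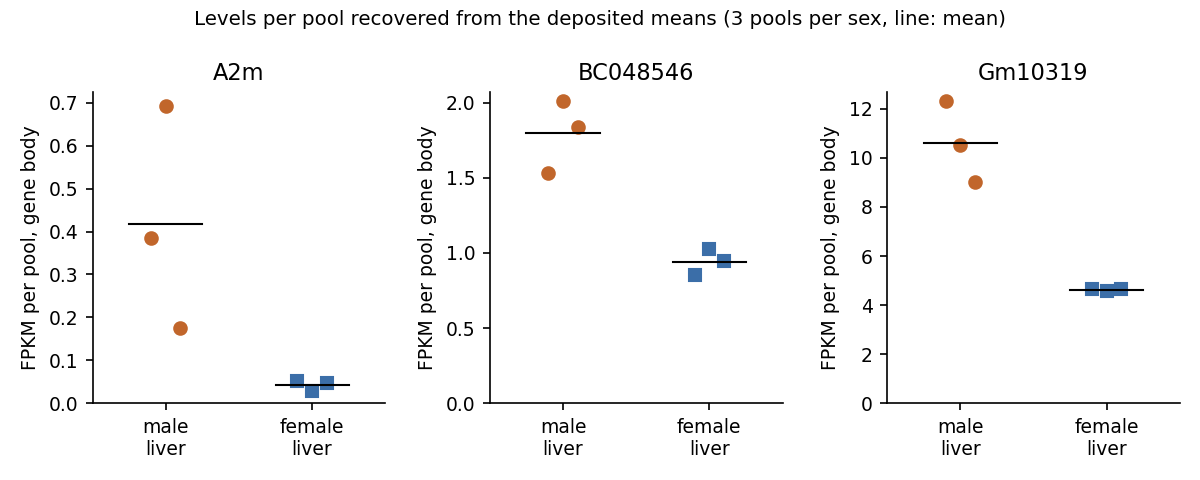
FPKM in each of the 3 male (circles) and 3 female pools (squares) for A2m and for the neighbouring genes BC048546 and Gm10319, recovered from the deposited means, with the mean as a line. Male pools lie above female pools for all 3 genes, and the highest male pool is 3.94 times the lowest for A2m, 1.31 times for BC048546 and 1.36 times for Gm10319. For BC048546 and Gm10319, unlike A2m, only a limited spread around each mean was searched.

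Summed over the 4 members, the gene body level was 1030 FPKM over male pools, against 732 FPKM over female pools, or 0.414% and 0.312% of the summed FPKM of all genes. The male sum was 1.41 times the female sum, a log2 ratio of 0.49, which was 0.18 without Mug1 and 0.85 without Pzp. The make-up of the sum differed too. Pzp made up 53.1% of it in male and 63.3% in female liver. Mug1 made up 43.4% in male and 29.5% in female liver, and Mug2 3.46% in male and 7.18% in female liver. The level of Pzp was 1.22 times that of Mug1 in male and 2.14 times that of Mug1 in female liver. No error can be given for these sums and shares, which rest on means.

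Along the chromosome, the ratios of the murinoglobulin copies lay on both sides of 1, that of Mug2 short of the authors' threshold. Between Mug2 and the end of the stretch lie 2 transcribed pseudogenes of GENCODE M21, Gm10319 (122086646 to 122100976) and Mug-ps1 (122126071 to 122198584), and both stood higher in male liver. For Mug-ps1 the authors' deposited table gave 20.1 FPKM over male pools, against 10.1 FPKM over female pools, which is 2.05-fold higher at an adjusted p of 8.14e-27. The authors' deposited table gave Gm10319 10.6 FPKM over male pools, against 4.63 FPKM over female pools, which is 2.37-fold higher at an adjusted p of 3.24e-19. The introns of both passed as well, at 2.22-fold for Mug-ps1 and 2.82-fold for Gm10319 in the authors' deposited table. Mug2 thus lies between Mug1 and 2 pseudogenes with higher male values, as the map of the stretch shows. Recovered per pool, Gm10319 had 12.3, 10.5 and 9.03 FPKM in male liver, against 4.65, 4.59 and 4.64 FPKM in female liver. Only read numbers within a limited spread around each mean were searched for Gm10319. The sexes did not overlap (two-sided exact permutation p = 0.1, the smallest possible, and 0.1 after Benjamini-Hochberg adjustment over the 3 genes tested this way). How reads of shared words were divided among Mug1, Mug2, Mug-ps1, Gm10319 and the unlisted Gm7298 and Mug4-ps is unknown. The part of that division in these values was not tested.

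**Figure D4:**
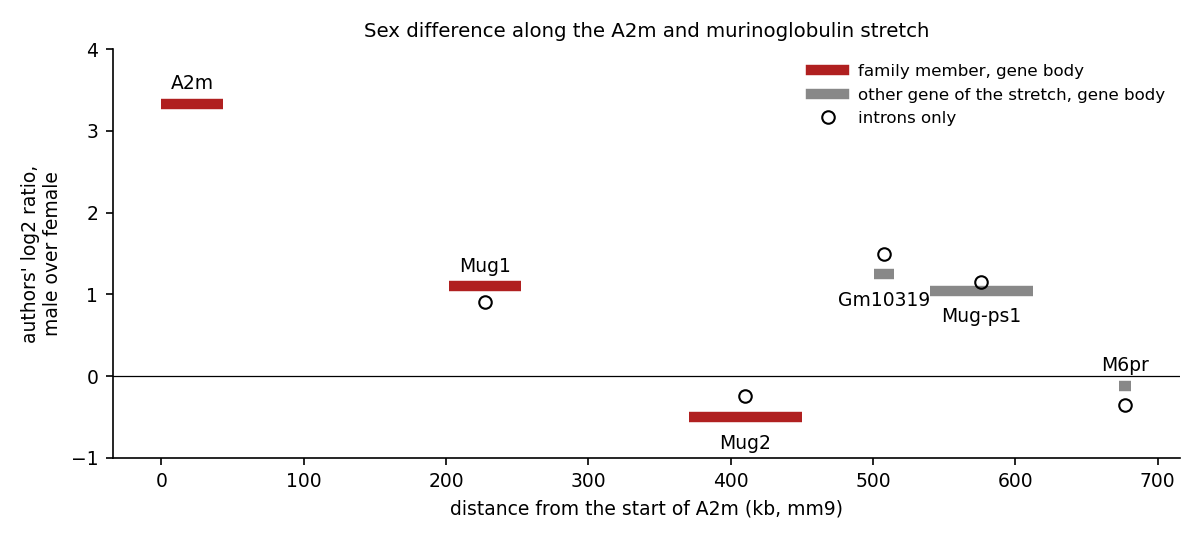
Authors' log2 ratio of male over female liver for each gene at its distance from the start of A2m in kb (mm9); bars span the gene and give the gene body value, red for family members and grey for others, and open circles give the introns. Mug1, Gm10319 and Mug-ps1 lie near 1 or above, Mug2 lies below 0, and M6pr, the next measured gene beyond, lies close to 0; A2m has no circle because its introns were listed at 0 in female liver.

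Next to Pzp, 13.1 kb away, lies BC048546 (128489840 to 128531624), named A2ml1 in RefSeq, a further alpha-2-macroglobulin-like gene. The authors' deposited table gave BC048546 1.80 FPKM over male pools, against 0.942 FPKM over female pools, which is 1.98-fold higher at an adjusted p of 2.69e-10. Per pool it had 1.54, 2.01 and 1.84 FPKM in male liver, against 0.856, 1.02 and 0.945 FPKM in female liver. For BC048546 too, only a limited spread around each mean was searched. The sexes did not overlap here either (two-sided exact permutation p = 0.1, and 0.1 after Benjamini-Hochberg adjustment over the 3 genes). Within 500 kb of a member lie 14 genes with a mean of 0.5 FPKM or more. By the authors' threshold 4 of these had higher male values and 1 had higher female values. Of the 4, Mug-ps1, Gm10319 and BC048546 are themselves copies or relatives of the members, so the count is not independent of the family. Of all 10936 genes at that level 13.8% passed, 6.68% with higher values in male and 7.14% with higher values in female liver. The other male-higher neighbour was Clec2h, a C-type lectin-like gene, at 2.65 FPKM over male pools, against 0.681 FPKM over female pools (adjusted p 3.65e-18 and 3.97-fold by the authors' deposited table). The neighbour higher in female liver was Slc6a12, a betaine transporter, at 13.8 FPKM over male pools, against 21.7 FPKM over female pools (by the authors' deposited table adjusted p 4.99e-08). The remaining 9, Apobec1, Pex26, Slc6a13, M6pr, Usp18, Fkbp4, Itfg2, Rhno1 and Tspan9, did not pass.

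The start regions of Mug1 and Mug2 were compared because the sequences are alike while the ratios lie on opposite sides of 1, that of Mug2 short of the authors' threshold. RefSeq promoters (build GRCm38.p6, 250 bases before to 50 after the start) were found for Pzp, Mug1 and Mug2. The windows of Mug1 and Mug2 aligned over 256 paired bases, of which 96.1% were identical. The capitals mark bases that differ or have no partner.
Mug1 (chr6:121838326-121838590, plus strand): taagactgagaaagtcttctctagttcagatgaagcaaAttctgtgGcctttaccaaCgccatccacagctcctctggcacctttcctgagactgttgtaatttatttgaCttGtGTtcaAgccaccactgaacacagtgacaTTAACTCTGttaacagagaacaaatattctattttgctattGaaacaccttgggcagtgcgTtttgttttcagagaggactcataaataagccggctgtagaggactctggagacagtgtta
Mug2 (chr6:122006548-122006810, plus strand): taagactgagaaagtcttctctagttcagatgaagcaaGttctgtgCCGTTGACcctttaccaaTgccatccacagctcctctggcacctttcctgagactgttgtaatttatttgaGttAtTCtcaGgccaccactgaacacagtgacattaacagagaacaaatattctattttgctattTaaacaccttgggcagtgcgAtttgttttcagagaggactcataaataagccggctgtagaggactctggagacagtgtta
In this alignment 9 bases of Mug1 and 7 bases of Mug2 have no partner. Exact matches to short motifs were sought on both strands with overlaps allowed. None of the 3 promoters, each over its whole window, held TTCNNNGAA, the core of STAT sites, or TGTTTAC, a FOXA core. None held the palindromic HNF1 motif, or TATAAA, a core of the TATA box. Of 32851 promoters of the same length, 8.30% held the first, 3.65% the second, 0.00913% the third and 13.6% the fourth. Sites that depart from these exact forms were not sought, and the absence of a motif as rare as the third says little.

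Of 6 relatives from the wider thioester protein family with a mean of 0.5 FPKM or more, 4 passed with higher male values and 1 with higher female values, where 6.68% and 7.14% of all measured genes did. Among genes at 100 FPKM or more in either sex, as C3, C4b and Hc were, 35.1% passed, 21.3% with higher male values. The 4 male-higher relatives include Mug-ps1 and BC048546, already given as neighbours. The median log2 ratio of all 6 relatives was 0.90, and that of all 10936 measured genes 0.01. Besides Mug-ps1 and BC048546, the relatives higher in male liver were C4a and Hc. C4a, a complement component, had 19.3 FPKM over male pools, against 2.01 FPKM over female pools. Hc encodes complement C5, a relative without the bond itself, and had 110 FPKM over male pools, against 64.9 FPKM over female pools. By the authors' deposited table C4a was 9.90-fold and Hc 1.76-fold higher in male liver, with adjusted p-values of 9.26e-168 and 3.99e-11. C3, the central complement component, was lower in male liver, at 793 FPKM over male pools, against 1016 FPKM over female pools, with an adjusted p of 0.00394 in the authors' deposited table. C4b did not pass, at 141 FPKM over male pools, against 124 FPKM over female pools. Reads of C4a and C4b, near-identical copies, may be split between them.

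Of 15 measured plasma protease inhibitors and inter-alpha-inhibitor genes, 2 were higher in male liver, 2 were higher in female liver and 11 did not pass. Among all measured genes 13.8% passed, and 35.1% of those at 100 FPKM or more in either sex, so the count does not set the list apart. Its median log2 ratio was -0.04. Ambp, which encodes the bikunin inhibitor, had 966 FPKM over male pools, against 826 FPKM over female pools, and Serping1, the C1 inhibitor, had 236 FPKM over male pools, against 205 FPKM over female pools. Itih2, a heavy chain of inter-alpha-inhibitor, had 173 FPKM over male pools, against 220 FPKM over female pools, and Kng2, a kininogen, had 47.7 FPKM over male pools, against 62.3 FPKM over female pools. By the authors' deposited table these 4 differed by 1.20- to 1.26-fold. Ahsg, the most abundant that did not pass in the gene body, had 2367 FPKM over male pools, against 2890 FPKM over female pools. Its introns did pass, at 16.7 FPKM over male pools, against 27.1 FPKM over female pools (adjusted p 0.00969 by the authors' deposited table). Itih4 had 505 FPKM over male pools, against 435 FPKM over female pools.

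Among genes of the proteins that macroglobulins bind, or that clear them, 0 of 3 receptors and chaperones, 1 of 6 proteases and 1 of 4 growth factors and cytokines passed, too few genes to set against the 13.8% of all measured genes. Lrp1, the endocytic receptor of alpha-2-macroglobulin complexes, had 26.3 FPKM over male pools, against 27.2 FPKM over female pools, with an adjusted p of 1 in the authors' deposited table. Its chaperone Lrpap1 (8.35 FPKM over male pools, against 8.80 FPKM over female pools) and Hspa5, a chaperone that can act as a receptor (176 FPKM over male pools, against 175 FPKM over female pools), did not pass either. Of 6 measured proteases known to be bound, only F11, a coagulation factor, passed, at 33.6 FPKM over male pools, against 28.0 FPKM over female pools. Plg, plasminogen, and F2, prothrombin, did not pass, Plg at 506 FPKM over male pools, against 536 FPKM over female pools and F2 at 395 FPKM over male pools, against 438 FPKM over female pools. Of 4 measured growth factors and cytokines, Il1b was lower in male liver, at 0.834 FPKM over male pools, against 2.77 FPKM over female pools, with an adjusted p of 2.72e-05 in the authors' deposited table. Il1b is made by macrophages, and the Kupffer markers given above moved the same way; their part in the result was not tested. Inhba and Tgfb1 did not pass. IL-6 signalling through STAT3 drives acute phase genes of the liver, and none of 9 measured genes of that pathway passed at an adjusted p under 0.05, which with 13.8% of all measured genes passing says little about it. Cebpb had 26.4 FPKM over male pools, against 23.2 FPKM over female pools, and Stat3 had 14.7 FPKM over male pools, against 16.6 FPKM over female pools.

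Genes with 4 values near those of each member were sought by Euclidean distance over gene body and intron log2(FPKM + 0.01) in both sexes. Only genes with a mean of 0.5 FPKM or more, members left out, were searched. The nearest were Cyp2c29 and Cyb5a for Pzp (distances 0.27 and 0.58) and Azgp1 and Cyp2c70 for Mug1 (0.94 and 0.94). For Mug2 they were Ppp1ca and Iah1 (0.23 and 0.26). For A2m, whose own mean of 0.230 FPKM lies below that limit, they were Asns and Mir1948 (1.76 and 1.92). Genes at the level of A2m were therefore not searched. The likeness rests on means of 2 groups. Ppp1ca and Iah1, like Mug2 in level and direction, passed the authors' threshold with adjusted p-values of 0.00426 and 0.0161 in the authors' deposited table.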

How the data were processed

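The members and gene lists were chosen with earlier results of these data known. Per the file headers, the authors' deposited table gives the mean FPKM of each sex and a male over female ratio with its adjusted p-value, separately for gene body and introns. The adjustment method and the scaling of the intron FPKM are not stated. The submitters' processing notes name build mm9, and the authors' tools as TopHat2, featureCounts and edgeR. Values per pool are not in the table, so no model was fitted here and the authors' ratio and p are described. A gene passed at an authors' adjusted p under 0.05; lists were counted over genes with a mean of 0.5 FPKM or more. Starts were raised by 1 base, because 10202 of 20780 spans then equal RefSeq's, against 550 unchanged.

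Library totals recur where a gene of at most 200 bases has 1 read in 1 pool. Reads per pool were sought for A2m, BC048546, Gm10319 and Mug-ps1, all called higher in male liver, a step chosen after seeing the data. They were accepted only where exactly 1 length and 1 set of reads per sex gave the deposited means (A2m, BC048546, Gm10319). Mug-ps1 had 8 female and 31 male solutions over the lengths tried and was left out. Pzp, Mug1 and Mug2 were not part of that run. For BC048546 and Gm10319 only read numbers within a fixed distance of the sex mean were tried, so a wider spread was not searched. A2m was searched without that limit. Which pool has which total is unknown. Named genes were the members, list genes that passed, the 2 most abundant others per list, neighbours with a mean of 0.5 FPKM or more, and the 2 nearest genes per member; Gm10069, Lrpap1 and C4b were named besides, after their values were seen. Sequences came from GENCODE M21 and RefSeq, both on GRCm38, and may differ in CD-1 mice. Alternatives were a stricter p, pseudocounts, quantile normalization, rescaling, other minimum levels and sums without a member. Python 3.11.15, numpy 2.4.6, pandas 2.3.3, scipy 1.17.1, biopython 1.88 and matplotlib 3.10.9 were used.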

Additional observations from a re-analysis of the deposited data

How the results depend on the processing

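No direction of a member turned under any alternative run (ratio of the mean FPKM, 3 pseudocounts, quantile normalization, rescaling without the 50 most abundant genes), and 3 members passed in the gene body also at an adjusted p under 0.01. With a 1.5-fold limit beside p under 0.05, 2 passed (A2m and Mug1). The log2 ratio of the mean FPKM of A2m, 3.29 (3.33 by the authors' ratio), was 1.86 with a pseudocount of 0.1 FPKM and 0.44 with 1 FPKM, since both exceed its female level of 0.0425 FPKM. Leaving out each recovered pool in turn, the log2 ratio of the means ranged from 2.72 to 3.66. The log2 ratio of the mean FPKM of Pzp, 0.24 (0.29 by the authors' ratio), was 0.10 after quantile normalization. At a minimum mean of 2 FPKM, the neighbours higher in male liver were 2 in place of 4, the thioester relatives 3 in place of 4, and the growth factors and cytokines higher in female liver 0 in place of 1, since fewer genes were counted. No paired analysis was possible because the table gives means over pools, and recovered reads carry no pool number. Leaving out a pool was not run for the other members, for which no reads per pool were recovered. Values of Mug1 and Mug2 are limited by shared sequence, and A2m by 21 reads in female liver.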
